A study of Salmo salar with 72 samples.

Results

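The distal intestine (DI) was compared between Atlantic salmon smolts fed *Wickerhamomyces anomalus* (WA) and smolts fed *Cyberlindnera jadinii* (CJ), both of them yeasts grown as protein ingredients for feed. The libraries were chosen by their labels alone, as the DI libraries of the 4 yeast diets, and make up 24 of the 72 libraries of the study, 12 on WA diets and 12 on CJ diets. Each species was fed in a spray-dried, heat-inactivated form (IWA and ICJ) and in an autolyzed form (AWA and ACJ), in which the yeast's own enzymes had broken down the cells before drying. Each of the 4 diets is represented by 6 fish sampled after 42 days of feeding. Salinity was raised step by step to that of full seawater early in this period. All 4 diets contained 30% soybean meal, the ingredient used in the study to provoke inflammation of the salmon gut, so that both species were tested on top of soybean meal. The design is therefore a 2 by 2 of species and processing, and it asks whether the intestine responds differently to the 2 species and whether that depends on how the yeast was processed. The diets were given to tanks, with 3 tanks per diet and 2 fish sampled per tank. The tank of each fish is not labelled, so the p-values measure the spread between fish and may take fish of a shared tank for independent ones.

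The cell wall of a yeast is built of β-glucan, mannan and chitin. In mammals these are recognised by C-type lectin receptors, which signal through the kinase SYK and the adaptor CARD9, and by some Toll-like receptors. Most Toll-like receptors signal through MYD88. The receptors sit mainly on leukocytes such as neutrophils, macrophages and dendritic cells, which answer with cytokines, chemokines and an oxidative burst. The DI of salmon takes up proteins by endocytosis, carries many leukocytes in its mucosa, and is the segment in which soybean meal causes enteritis.

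Between 6976621 and 30857656 fragments were counted on genes in the 24 libraries, with a median of 25076855.5 for the WA diets and 17679149 for the CJ diets. Markers of the tissue were present, among them the enterocyte cadherin cdh17 at a mean of 1917 CPM (counts scaled to a common library size) and the bile acid transporter slc10a2, known from the mammalian ileum, at 1404 CPM. The library of ICJ fish 4 stood apart. Its median rank correlation with the other 23 libraries was 0.771, against 0.879 or more for each of the others, and its 10 enterocyte markers lay on average 4.01 below the mean of all libraries on the log2 scale, while the other CJ and the WA fish lay between -0.95 and 1.22. IWA fish 5 had the lowest depth and the next lowest correlation, 0.879, followed by ICJ fish 6 with 0.889. All results below are given with ICJ fish 4, and the main ones also without it.

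Among markers of leukocytes in the DI, 5 of 6 for neutrophils, 3 of 4 for B cells, 2 of 9 for macrophages and dendritic cells and 1 of 9 for T cells fell on WA relative to CJ, and none of them passed without ICJ fish 4. Of 31303 genes tested with edgeR, 1182 or 3.78% differed between the species at an adjusted p under 0.05 (differentially expressed genes, DEGs). Of these, 1083 were lower on the WA diets, 3.46% of the genes tested, and 99 were higher, 0.316%. The smallest adjusted p was 0.0358, and 7501 genes had an unadjusted p under 0.05. Across the genes tested the log2 fold change, WA over CJ, had its median at 0.01. DESeq2 called 3086 genes, 2579 lower and 507 higher, and 1175 of the 1182 DEGs of edgeR were among them with the same direction. In none of the 31303 genes did all 12 WA fish lie outside the range of the 12 CJ fish.

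The number of DEGs depended on single fish. It was 0 without ICJ fish 4, with a smallest adjusted p of 0.062 and 6286 genes at an unadjusted p under 0.05. It was also 0 when any 1 of ICJ fish 6, ACJ fish 4 and 6, IWA fish 1, 4 and 6, or AWA fish 1, 3, 4 and 5 was left out. It rose to 4717 without ICJ fish 1, to 3174 without ICJ fish 5, to 2195 without AWA fish 6, to 1905 without IWA fish 5 and to 1803 without IWA fish 2, and it was 513 without AWA fish 2, 567 without ACJ fish 5 and 785 without ICJ fish 3. The calls were also lost with blocks over all 24 fish, with 0 DEGs for 3 sets of inferred tanks as a block, for the replicate block, and for limma voom with the inferred tank as a random block, while counts summed per inferred tank gave 1858. The 1182 DEGs were chosen on the full set, so that their signs in these fits, which did not turn, are no separate support. Of them, 1181 had an unadjusted p under 0.05 without ICJ fish 4, and DESeq2 without that fish called 1171. The genes behind these counts were chosen with the same fish, so the counts are no separate support either. The median size of their log2 fold change was 1.34 with ICJ fish 4 and 1.18 without it. Every adjusted p given below for a single gene comes from the 24 fish, and none of these genes stayed under 0.05 in edgeR without ICJ fish 4.

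**Figure D1:**
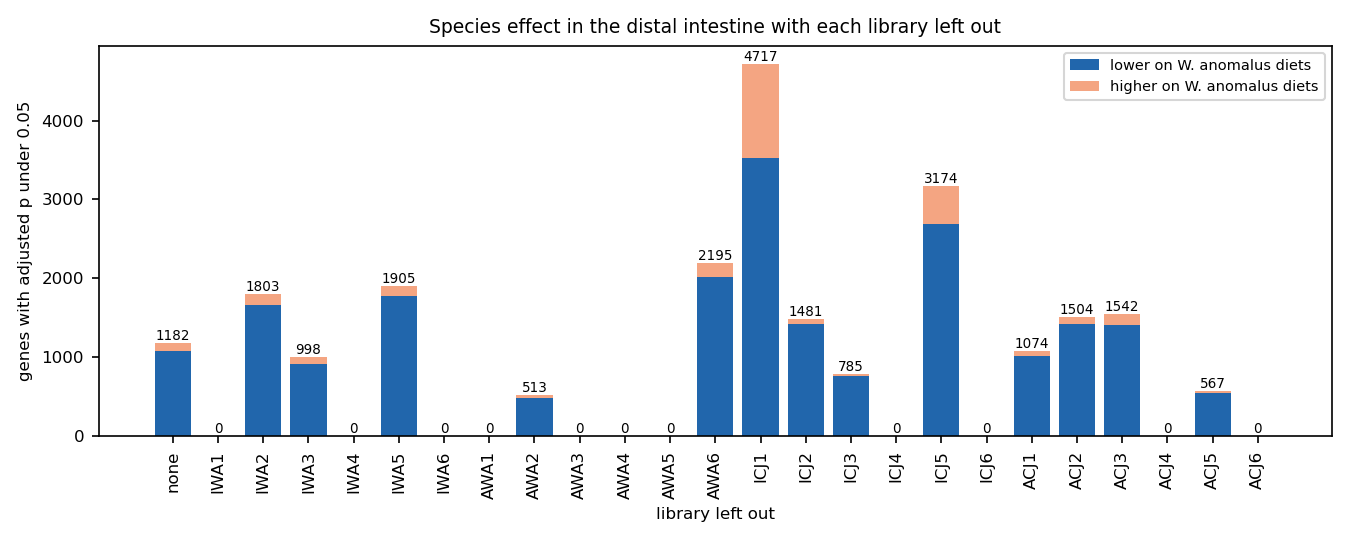
Number of DEGs between WA and CJ diets (adjusted p under 0.05, edgeR) when each library is left out in turn, with the full set of 24 libraries at the left. Blue parts count genes lower and orange parts genes higher on the WA diets, and the total stands above each bar. It runs from 0 for 11 of the 24 libraries to 4717 without ICJ fish 1.

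Among markers of neutrophils, the phagocytes that first enter inflamed tissue, 6 of 6 genes were lower on WA and 5 fell past the threshold, with the list median at -1.59, or -1.46 without ICJ fish 4. The gene ncf1 (ENSSSAG00000041940, chromosome 4, 69286736 to 69307714 in Ssal_v3.1) carries the RefSeq name of the organiser subunit of the oxidase that makes the oxidative burst, while the gene list of the study describes it as an SH3 and PX domain protein. It had 5.53, 16.2 and 53.4 CPM (lowest, median, highest) in WA fish and 6.65, 59.5 and 180 CPM in CJ fish. All 12 WA fish lay below the CJ median and 11 of 12 CJ fish above the WA median, the exception being ICJ fish 1. The log2 fold change was -1.76 (standard error 0.39, adjusted p = 0.0358). The regulatory subunit ncf4 fell by 1.87 on the log2 scale (adjusted p = 0.0434). The receptor for granulocyte colony-stimulating factor, csf3r, had 12.2, 23.1 and 72.6 CPM in WA fish and 13.1, 65.1 and 182 CPM in CJ fish (log2 fold change -1.46, adjusted p = 0.0362). The gelatinase mmp9 had a log2 fold change of -1.08 and did not pass (adjusted p = 0.0817). Summed over the 6 markers, WA fish had between 43.7 and 275 CPM with a median of 88.3, and CJ fish between 44.7 and 771 CPM with a median of 278. In bulk tissue, fewer cells of a type and less RNA per cell cannot be told apart.

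Of the 10 largest decreases among DEGs with a name and at least 1 CPM on average, 2 carry names of leukocyte proteins. The first was LOC106604583 (ENSSSAG00000076003, chromosome 5, 29503077 to 29505886), described as similar to leukocyte cell-derived chemotaxin-2, which attracts neutrophils in mammals. WA fish had 0.0884, 0.615 and 2.73 CPM, and CJ fish 0, 6.56 and 30.8 CPM. The 0 belonged to ICJ fish 1, and 10 of the 12 CJ fish were above every WA fish. The log2 fold change was -3.34 (standard error 0.63, unadjusted p = 2.18e-05, adjusted p = 0.0358) and -3.22 without ICJ fish 4. The second, LOC106610904 (ENSSSAG00000043753, chromosome 2, 95287786 to 95295675), described as similar to CD209 antigen, a lectin of dendritic cells that binds mannose-rich sugars in mammals, had 0, 0.205 and 1.21 CPM in WA fish and 0, 1.80 and 10.6 CPM in CJ fish. Its log2 fold change of -3.02 was -2.28 without ICJ fish 4.

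**Figure D2:**
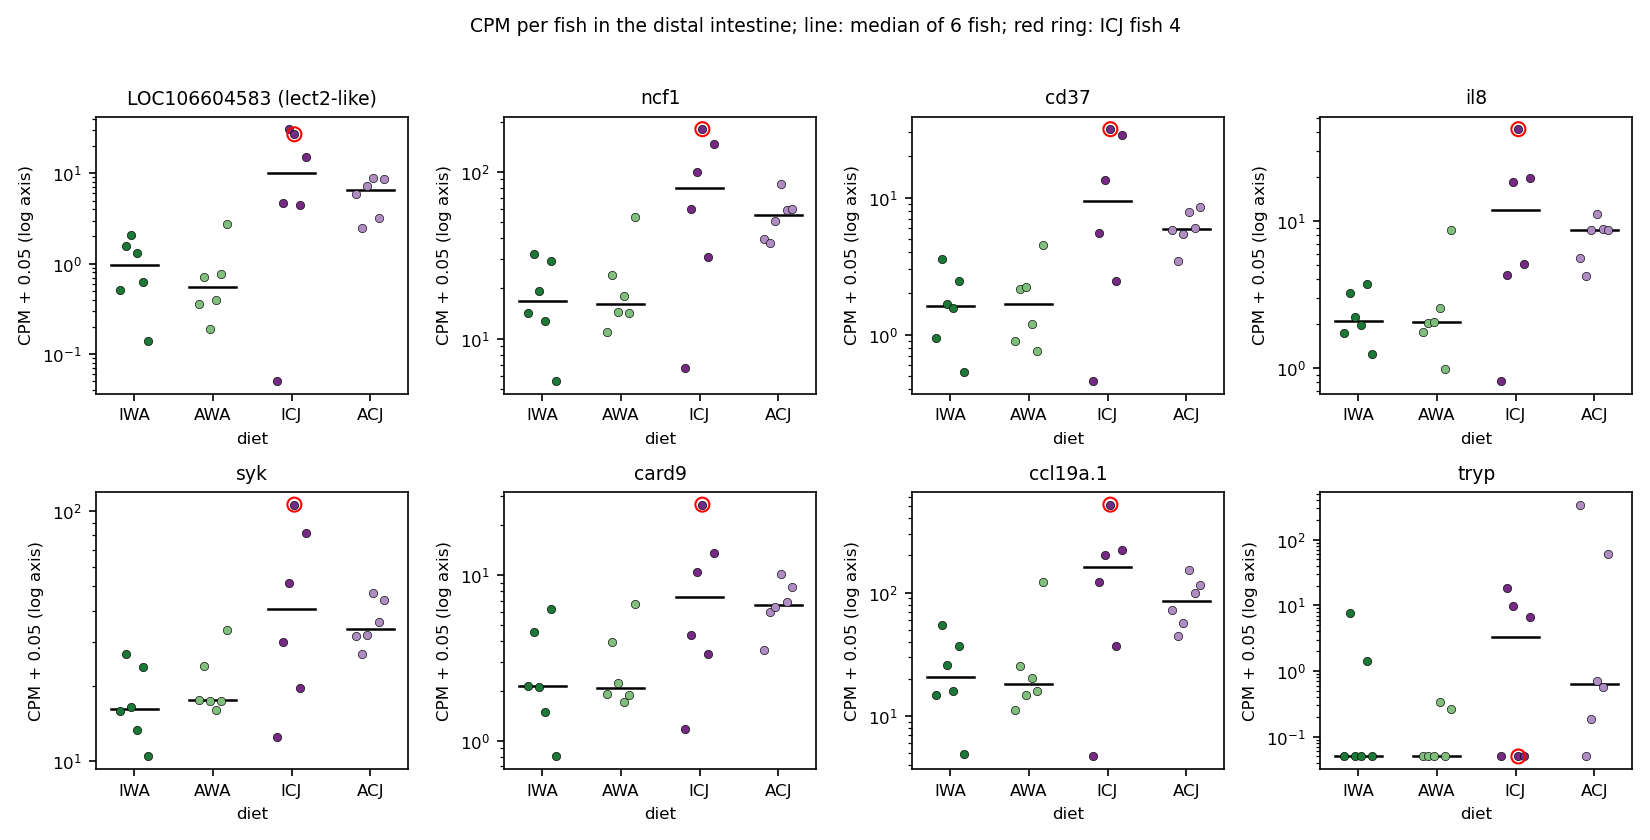
CPM of 8 genes in each fish by diet, plotted with 0.05 added on a log axis, with the median of 6 fish as a line and ICJ fish 4 ringed in red. In the 7 genes other than tryp the IWA and AWA medians lie below the ICJ and ACJ medians. ICJ fish 1 lies below the WA median in each of these 7. The gene tryp is at 0 in 8 of 12 WA fish and 4 of 12 CJ fish.

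Markers of B cells and plasma cells were lower on WA in 4 of 4 genes, and 3 passed. The list median was -1.46, or -1.30 without ICJ fish 4. The tetraspanin cd37 (ENSSSAG00000065541, chromosome 19, 4918334 to 4946523), found mostly on B cells, had 0.486, 1.57 and 4.46 CPM in WA fish and 0.409, 5.82 and 31.5 CPM in CJ fish. All 12 WA fish were below the CJ median, and 9 CJ fish were above every WA fish (log2 fold change -2.34, standard error 0.49, adjusted p = 0.0358). The B cell receptor chain cd79b (-1.42) and the kinase btk (-1.50) fell too. The span of btk overlaps that of another annotated gene on its strand. The kinase blk did not pass, with -0.98 and an adjusted p of 0.0510.

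Of the 9 tested markers of macrophages and dendritic cells, 9 were lower on WA and 2 passed. The list median was -0.997, or -0.83 without ICJ fish 4. The kinase hck had 12.4, 27.7 and 85.7 CPM in WA fish and 12.9, 74.2 and 247 CPM in CJ fish (log2 fold change -1.55, adjusted p = 0.0358). The calcium-binding protein aif1 fell by 1.36 on the log2 scale. Lysozyme (lyz) had the largest fold change of the list, -2.10, and did not pass (adjusted p = 0.0578). Genes annotated as the scavenger receptor marco, a defining marker, had too few counts to be tested. A marco gene without counts in any of the 24 libraries was among them. T cell markers were lower in 9 of 9 genes with a median of -0.62, or -0.51 without ICJ fish 4. Of them 1 passed, the gene listed as CD4 (LOC100169853), with 9.41, 13.6 and 33.4 CPM in WA fish and 8.24, 27.4 and 66.5 CPM in CJ fish. The span of that gene overlaps another annotated gene on its strand. The signaling chain cd3e had -0.77 (adjusted p = 0.0564) and the cytotoxic co-receptor cd8a -0.22 (adjusted p = 0.509). Of these 9 genes, gata1 matched the list only through its synonym gata3. Over all genes tested, 15259 of 31303 had a log2 fold change below 0.

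**Figure D3:**
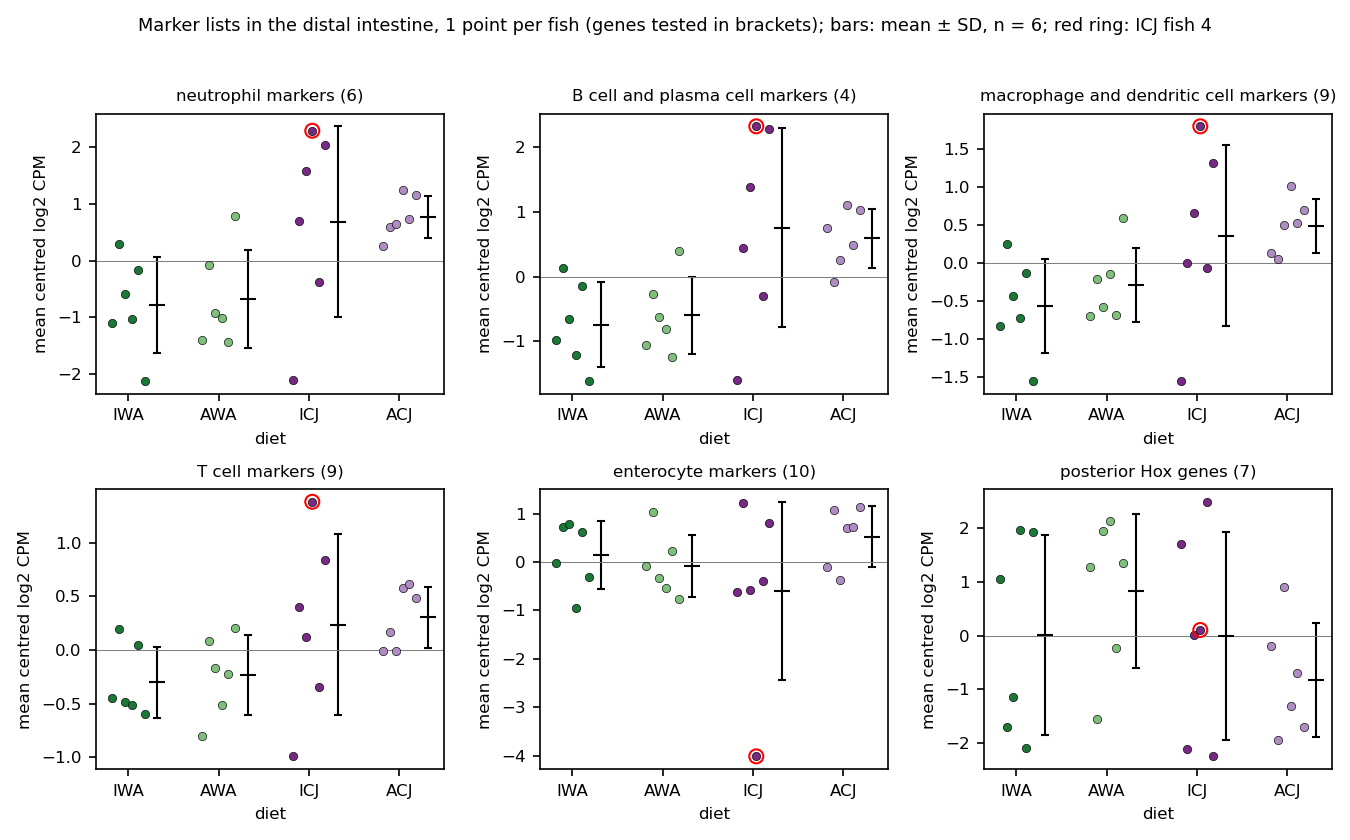
Score of 6 marker lists in each fish (mean over the list's tested genes of log2 CPM centred on the mean of the 24 libraries) by diet, with mean ± SD of 6 fish beside the points and ICJ fish 4 ringed in red. For neutrophils the scores run from -2.12 to 0.79 in WA fish and from -2.10 to 2.29 in CJ fish, and for the enterocyte markers ICJ fish 4 is at -4.01.

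Genes that sense the yeast cell wall and other microbial products were lower on WA in 11 of 14 tested, and 5 passed, the median being -0.90, or -0.81 without ICJ fish 4. The kinase syk (ENSSSAG00000076619, chromosome 1, 165168727 to 165199622), which relays C-type lectin signals in mammals, had 10.4, 17.4 and 33.5 CPM in WA fish and 12.4, 33.9 and 106 CPM in CJ fish (log2 fold change -1.15, standard error 0.27, adjusted p = 0.0358). Its partner card9 (ENSSSAG00000064391, chromosome 20, 13899616 to 13904515) had 0.752, 2.07 and 6.67 CPM in WA fish and 1.13, 6.57 and 26.7 CPM in CJ fish (-1.51, adjusted p = 0.0430). In both genes 11 or 12 of the WA fish lay below the CJ median. Downstream of card9 the list was uneven, with -0.99 for bcl10 (adjusted p = 0.103) and 0.05 for malt1 (adjusted p = 0.757). The Toll-like receptors tlr9 (-1.70), tlr13 (-1.30) and tlr21 (-1.21) fell, while tlr2 (-1.17), tlr7 (-0.81) and tlr1 (-0.76) did not pass. Which of these receptors respond to the yeast cell wall in salmon was not tested. The span of tlr21 overlaps another annotated gene on its strand. The double-stranded RNA receptor tlr3 had 0.28 and the adaptor myd88 -0.24, neither past the threshold.

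Of the cytokines, chemokines and their receptors, 19 of 25 tested were lower and 7 passed, all of them lower. The list median was -0.66, or -0.48 without ICJ fish 4. The chemokine il8 (ENSSSAG00000006498, chromosome 6, 33139870 to 33141712), which draws neutrophils, had 0.932, 2.00 and 8.61 CPM in WA fish and 0.767, 8.58 and 41.9 CPM in CJ fish. The highest CJ value was that of ICJ fish 4, and the next was 19.4. The log2 fold change was -2.06 (standard error 0.45, adjusted p = 0.0358) and -1.78 without that fish. The chemokine ccl19a.1, whose mammalian counterpart guides dendritic cells and T cells, had 4.91, 18.1 and 122 CPM in WA fish and 4.65, 107 and 516 CPM in CJ fish (-2.11, adjusted p = 0.0376). The receptors that fell besides csf3r were cxcr3 (-1.90) and cxcr4 (-1.11), which steer lymphocytes, the decoy receptor il1r2 (-1.72), and ifngr2a (-1.58), a chain of the receptor for interferon gamma. The other tested chains of that receptor did not pass, with 0.11 for ifngr1a, 0.66 for ifngr1b and -0.18 for ifngr2b. The genes il6, il12a, ifng and ccr6 had too few counts to be tested.

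In the list of interferon response and antigen presentation, 10 of 13 were lower and 4 passed. The list median was -0.28, or -0.29 without ICJ fish 4. The transcription factor irf-1 had 33.4, 51.5 and 87.7 CPM in WA fish and 31.0, 118 and 221 CPM in CJ fish (log2 fold change -1.04, adjusted p = 0.0358), and its paralog irf1b fell by 1.19. Tapasin (tapbp, -0.73) and the immunoproteasome subunit psmb8b (-0.60), both of the pathway that loads peptides on class I molecules, fell as well. Among genes of this list that respond to type I interferon, mx2, irf7 and dhx58 did not pass, and rsad2 was not tested. The log2 fold change was 0.01 for mx2 (adjusted p = 0.994), 0.13 for irf7 (adjusted p = 0.727) and -0.22 for dhx58 (adjusted p = 0.538).

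**Figure D4:**
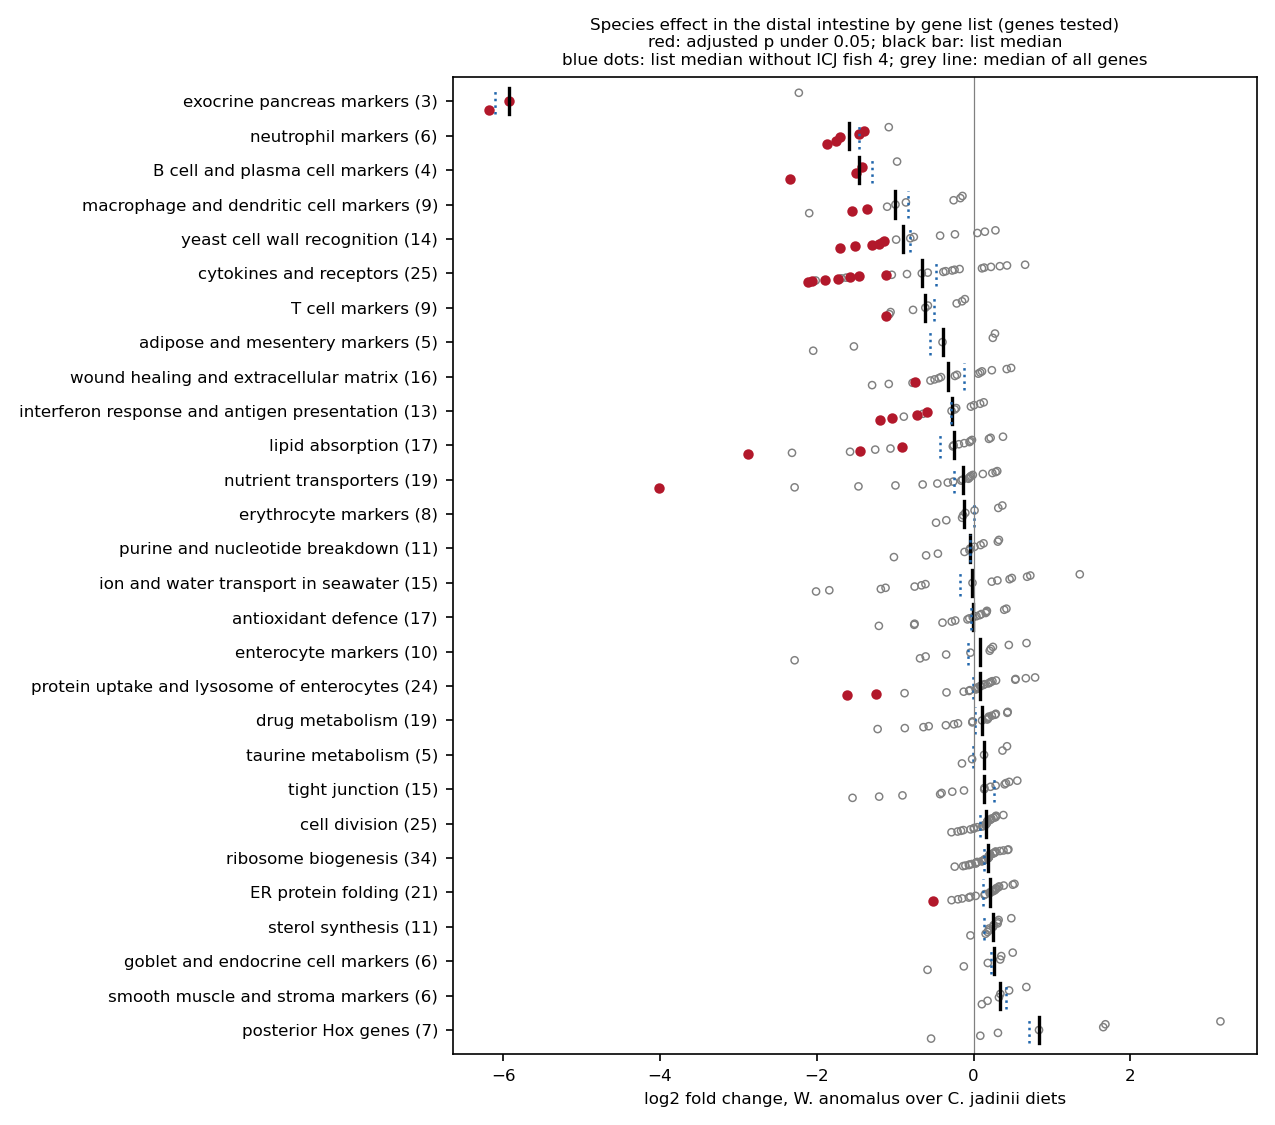
Log2 fold change, WA over CJ diets, of every tested gene in 28 gene lists, with the number tested in brackets. Red points passed an adjusted p under 0.05, black bars are the list medians, blue dotted bars the medians without ICJ fish 4 and the grey line the median of all genes at 0.01. The lowest medians are -5.93 for 3 pancreatic genes and -1.59 for neutrophil markers, and the highest is 0.83 for posterior Hox genes.

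Of 17 genes of lipid absorption, 14 were lower. The list median was -0.25, or -0.43 without ICJ fish 4, with -0.10 between IWA and ICJ and -0.49 between AWA and ACJ. The 3 that fell were apoc1, an apolipoprotein of lipoprotein particles, the acyl-CoA synthetase acsl1a (-0.91) and slc51a, a chain of the basolateral bile acid exporter. WA fish had 0.432, 3.21 and 8.5 CPM of apoc1, and CJ fish 0.153, 10.7 and 112 CPM, of which 112 was the value of ICJ fish 4. Its log2 fold change of -2.88 was -2.0 without that fish. For slc51a WA fish had 0.708, 2.04 and 3.68 CPM and CJ fish 0.256, 5.54 and 10.8 CPM (log2 fold change -1.45, adjusted p = 0.0388). The bile acid importer slc10a2 had 0.37 and did not pass (adjusted p = 0.536). The list of protein uptake and lysosome had a median of 0.09, and the 2 of its 24 genes that fell, psap (-1.61) and cd63 (-1.25), encode a lysosomal activator protein and a vesicle membrane protein that leukocytes also express. WA fish had 147, 336 and 1162 CPM of psap, and CJ fish 138, 1066 and 3304 CPM. The endocytosis receptor lrp2a had -0.88 and did not pass (adjusted p = 0.158).

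Of 19 nutrient transporters, 1 passed, the carnitine transporter slc22a5, which was at 0 CPM in 7 WA and 4 CJ fish and reached 4.80 CPM in a CJ fish, and the median was -0.14. DESeq2 did not call slc22a5 (adjusted p = 0.0566). In wound healing and extracellular matrix, 1 of 16 passed, the protease inhibitor timp2a (-0.75), and in protein folding of the endoplasmic reticulum 1 of 21, the disulfide isomerase pdia4 (-0.52). These shares are near the 3.78% called over all genes. In 9 other pathway lists 0 genes passed. Their medians lay between -0.04 for nucleotide breakdown and 0.25 for sterol synthesis, where 10 of 11 genes were above 0, with 0.32 for the regulator srebf2 (adjusted p = 0.217). In ribosome biogenesis 28 of 34 were above 0, and in cell division 20 of 25, against 16044 of 31303 over all genes tested. Without ICJ fish 4 the median of sterol synthesis was 0.13. That of ribosome biogenesis went from 0.19 to 0.13 and that of cell division from 0.16 to 0.08. The sodium pump subunit atp1b1a, which takes part in salt uptake in seawater, had 176, 202 and 532 CPM in WA fish and 33.1, 163 and 245 CPM in CJ fish (log2 fold change 0.72, adjusted p = 0.0902). The tight junction scaffold tjp1a had 0.41 (adjusted p = 0.0781), and the 2 taurine transporters had 0.43 for slc6a6 and 0.37 for slc6a6b, with adjusted p of 0.32 and 0.284.

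Of the 99 genes that rose on WA, 38 had a name, and the 10 largest among those with at least 1 CPM on average ranged from 0.70 to 2.58 on the log2 scale. The growth factor nrg1 (ENSSSAG00000097705, chromosome 1, 163414815 to 163576308), a ligand of ERBB receptors, had 3.39, 7.95 and 10.3 CPM in WA fish and 1.02, 3.21 and 7.98 CPM in CJ fish. All 12 WA fish were above the CJ median (log2 fold change 1.09, standard error 0.25, adjusted p = 0.0358). Integrin β4 (itgb4), which anchors epithelial cells to the basement membrane, had 58.8, 102 and 170 CPM in WA fish and 37.6, 47.1 and 144 CPM in CJ fish (0.79, adjusted p = 0.0440). The largest of these increases was that of ENSSSAG00000019115, described as a homolog of the epithelial protease ST14, with 0.342, 4.23 and 23.8 CPM in WA fish and 0.0504, 0.687 and 7.77 CPM in CJ fish (2.58, adjusted p = 0.0405). The ephrin receptor epha2a (0.90), the fibrillin fbn2a (1.01), card14 (1.16), a relative of card9 known from skin epithelium in mammals, the calcium pump atp2b4 (0.76) and smtnl (0.99), opa3 (0.70) and si:dkey-199f5.8 (0.71) rose as well. In each of these 10 genes ICJ fish 1 lay above the WA median, and it was the only CJ fish to do so except in atp2b4, where ICJ fish 5 did as well.

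Among DEGs with a name and a mean of at least 1 CPM, the largest decreases were digestive enzymes of the exocrine pancreas, tissue that in salmon lies scattered around the gut. Of the 3 listed markers all were lower and 2 passed, trypsin (tryp) and carboxypeptidase B (cpb1), and by size the same comparison named cbpa1, cbpa2, ctrb, cac3 and ela2l, with log2 fold changes between -6.23 and -5.64. These values rest on few fish. Trypsin was at 0 CPM in 8 WA and 4 CJ fish and reached 1 CPM in 2 WA fish, with 7.52 CPM in IWA fish 2, and in 5 CJ fish, with 342 CPM in ACJ fish 1 and 59.6 CPM in ACJ fish 6. Its log2 fold change was -9.79 between AWA and ACJ and -2.07 between IWA and ICJ. Over both it was -7.63 without IWA fish 2 and -4.70 without ACJ fish 1, the ends of its range over the 24 fits that left out 1 fish. In the spleen of the same fish the value was 2.35 and did not pass (edgeR adjusted p = 0.783). The gene vmo1 (-3.49) followed the same fish, with 182 CPM as the highest CJ value and 3.33 CPM as the highest WA value.

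Whether the difference between the species depended on processing was tested as an interaction, (AWA - ACJ) - (IWA - ICJ). By edgeR 0 genes passed (0%), with a smallest adjusted p of 0.955 and 1068 genes at an unadjusted p under 0.05, and DESeq2 called 6. Taken alone, neither pair gave a DEG. For IWA against ICJ 0 genes passed (0%), 5272 had an unadjusted p under 0.05 and DESeq2 called 1302. Without ICJ fish 4, 3085 genes had an unadjusted p under 0.05 in that pair and DESeq2 called 13. For AWA against ACJ 0 passed (0%), 3497 had an unadjusted p under 0.05 and DESeq2 called 90. The difference between autolyzed and inactivated yeasts over both species also gave 0 (0%), with 1289 genes at an unadjusted p under 0.05 and 40 called by DESeq2. The count for IWA against ICJ was 2514 without ICJ fish 1, 1089 without ICJ fish 5 and 1 without IWA fish 6.

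The pairs IWA with ICJ and AWA with ACJ share no fish, although they were scaled and fitted together, so that one can be set beside the other. Of 3477 genes lower in IWA than in ICJ at an unadjusted p under 0.05, 3164 were also lower in AWA than in ACJ, or 91.0%. Of 1795 genes higher in IWA, 1414 were also higher in AWA, 78.8%. Over all genes the sign was shared by 67.3%. Genes that move together are counted 1 by 1 in these shares, and each diet has only 6 fish. These shares, and the list medians by pair, are given only with ICJ fish 4. Without that fish, genes at an unadjusted p under 0.05 for IWA against ICJ went from 5272 to 3085. How far the shares and the medians by pair rest on it was not tested. The neutrophil list had a median of -1.93 between IWA and ICJ and -1.26 between AWA and ACJ, the B cell list -1.83 and -1.10, the macrophage list -1.14 and -0.85, and the T cell list -0.92 and -0.47. The range was wide in ICJ fish and narrow in ACJ fish. The neutrophil score of the 6 ICJ fish ran from -2.10 to 2.29 and that of the 6 ACJ fish from 0.26 to 1.25. The gene with the smallest p for the interaction among named genes was the immediate early gene ier2a, at medians of 9.52 CPM in IWA and 16.6 CPM in ICJ, and 11.6 CPM in AWA and 10.04 CPM in ACJ (interaction 1.14 on the log2 scale, unadjusted p = 0.00175, adjusted p = 0.955).

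**Figure D5:**
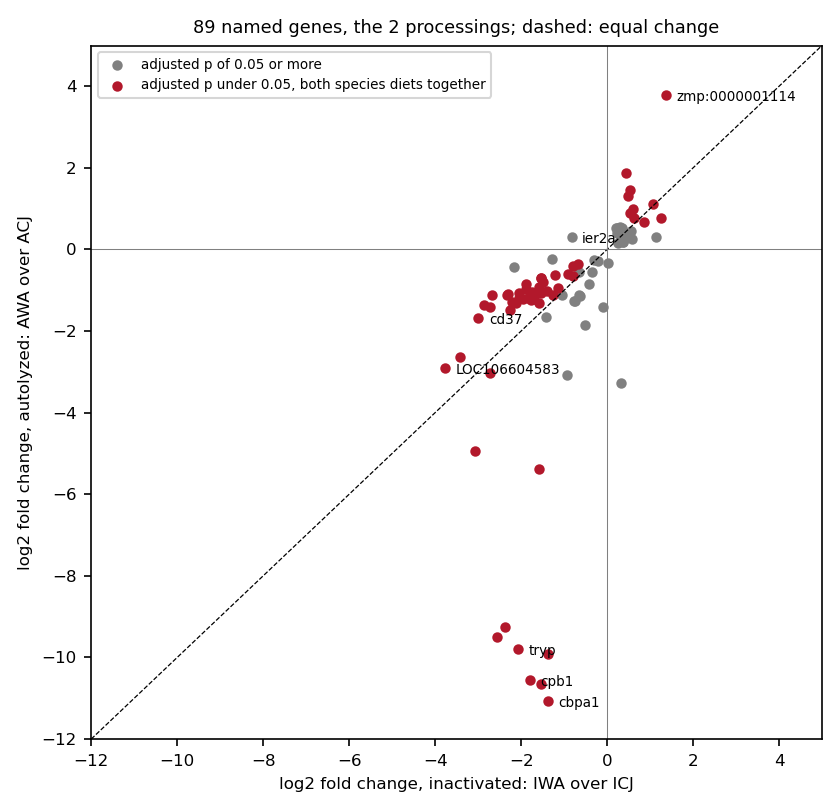
Log2 fold change of the 89 named genes between IWA and ICJ (horizontal) and between AWA and ACJ (vertical), with red points for an adjusted p under 0.05 over both processings together and a dashed line of equal change. Genes of leukocytes such as cd37 lie above the line with both values below 0, and the pancreatic enzymes such as tryp, at -2.07 and -9.79, lie far under it.

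Levels of posterior Hox genes ranged widely within both species. These genes, which mark the hindmost gut in vertebrates, had a summed level of 6.62, 31.6 and 47.6 CPM in WA fish and 6.80, 15.4 and 47.1 CPM in CJ fish. Of 7 tested, 6 were higher on WA and 0 passed, with the list median at 0.83. The list median was 0.04 between IWA and ICJ and 1.46 between AWA and ACJ. With the mean of these genes as a covariate, 0 genes passed for the species effect by edgeR, with a smallest adjusted p of 0.121. An unadjusted p under 0.05 was found in 6085 genes, and all 1182 DEGs kept their sign with a median size of 1.13. The pairs moved apart under this covariate. For AWA against ACJ, genes at an unadjusted p under 0.05 went from 3497 to 880, with a smallest adjusted p of 0.999. For IWA against ICJ they went from 5272 to 6019, with a smallest adjusted p of 0.0694. Why the pairs differed was not tested. Over both processings, the median with the covariate was -1.31 for the neutrophil list and -1.20 for the B cell list. It was -0.79 for the macrophage list and -0.40 for the T cell list. That of lipid absorption went from -0.25 to -0.03, of nutrient transporters from -0.14 to 0.11 and of fat markers from -0.40 to -0.16. Sterol synthesis went from 0.25 to 0.21, and smooth muscle and stroma from 0.33 to 0.30.

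In 5 lists of other cells 0 genes passed. The 10 tested enterocyte markers had a median of 0.08, with 5 below and 5 above 0. Their summed level was 2364, 3512 and 4245 CPM in WA fish and 465, 3170 and 3929 CPM in CJ fish, the lowest being ICJ fish 4. The 6 goblet and endocrine markers had a median of 0.26 and the 8 erythrocyte markers -0.12. All 6 markers of smooth muscle and stroma were higher on WA with a median of 0.33, and the 5 tested markers of fat had -0.40, or -0.56 without ICJ fish 4, with -0.18 between IWA and ICJ and -0.90 between AWA and ACJ. The part of these cells in the species difference was not tested.

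The spleen of the same 24 fish gave 0 DEGs for the same contrast (0%), with 1981 of 31561 genes at an unadjusted p under 0.05 and 2 called by DESeq2. Of the 1077 genes lower on WA in the DI that were tested in the spleen, 583 were also lower there, 54.1%, their median log2 fold change being -0.02 in the spleen and -1.39 in the DI. Of the 89 genes higher on WA in the DI, 27 were also higher in the spleen, 30.3%. Over all 28576 genes tested in both tissues, 48.0% shared the sign. The neutrophil list had a median of -0.08 in the spleen, the B cell list -0.12 and the macrophage list -0.02. The spleen value was -0.17 for ncf1, -0.25 for cd37 and -0.01 for il8. The difference between the tissues was not tested.

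For scale, the fishmeal (FM) and soybean meal (SBM) diets without yeast were placed beside the 4 yeast diets in a scaling of all 36 DI libraries. The median level of ncf1 was 16.5 CPM in IWA, 16.2 CPM in AWA, 78.4 CPM in ICJ, 55.2 CPM in ACJ, 32.4 CPM in SBM and 52.6 CPM in FM. The ranges were wide in both diets without yeast, from 11.6 to 217 CPM in SBM and from 13.4 to 119 CPM in FM. For cd37 the medians were 3.62 CPM in SBM and 3.40 CPM in FM, between those of the WA diets and those of the CJ diets.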

How the data were processed

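RNA of the distal intestine was sequenced with a stranded mRNA protocol. According to the labels and the methods, the authors trimmed reads with Trim Galore, aligned them to Ssal_v3.1 with STAR and RSEM in a workflow, and counted reverse-stranded pairs per gene with featureCounts (1.4.6 in the notes, another version in the file headers), leaving out reads with several positions. The deposited values are raw gene counts. Precision is set by the fish and by the 6976621 to 30857656 fragments per library.

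Libraries were grouped by their labels. Counts were filtered by expression over the 4 diets, scaled by TMM and tested with the quasi-likelihood test of edgeR 4.0.16 (limma 3.58.1, R 4.3.3), with 1 mean per diet, the species effect as the mean of IWA and AWA minus that of ICJ and ACJ, and Benjamini-Hochberg adjustment over all genes (threshold 0.05). The scripts were tested on simulated counts. These spread less between fish than the data, where the common coefficient of variation was 44.7%, and held no fish that stood apart. That test therefore does not cover the dependence on single fish. DESeq2 1.42.0, other scaling and filters, a log2 limit of 2, all 36 DI libraries, blocks and each library left out were tried as alternatives. Scores used log2 CPM with a prior count of 1.

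Symbols come from RefSeq genes whose span shared at least 50% with the gene in both directions, and from the gene list of the study. Named genes were the 10 largest increases and 10 largest decreases among DEGs with a name and a mean of at least 1 CPM, the smallest p for the interaction, list members past the threshold, and up to 3 members per pathway list with the smallest p. Members and lists were chosen with earlier results of these data known. Values of some single list members are not reported here.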

Additional observations from a re-analysis of the deposited data

Results flagged for a closer look

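Within each diet, the highest or lowest of 6 fish was set against the others on the log2 scale for the 89 named genes. In 32 of 356 groups that fish stood apart, and chance alone gives about 1 in 20 groups. That rate does not hold where the other fish were all at 0 CPM, as for cac3 in IWA and AWA. Genes that move together repeat the same fish, and no cause was tested.

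AWA fish 6 stood apart with 0.105 CPM of cac3 (highest, diet median 0), 13.6 CPM of tlr13 (highest, diet median 4.97), 122 CPM of ccl19a.1 (highest, diet median 18.0), 52.0 CPM of stard4 (lowest, diet median 63.8), 35.1 CPM of fdft1 (lowest, diet median 57.1), 57.4 CPM of cd63 (highest, diet median 18.2), 1162 CPM of psap (highest, diet median 336), 70.2 CPM of timp2 (highest, diet median 17.1) and 33.4 CPM of LOC100169853 (highest, diet median 15.0). ICJ fish 1 stood apart with 10.2 CPM of fbn2a (highest, diet median 2.49), 0 CPM of LOC106604583 (lowest, diet median 9.97), 0.256 CPM of slc51a (lowest, diet median 7.10), 6.34 CPM of lrp2a (lowest, diet median 39.0) and 0.0512 CPM of jam2b (lowest, diet median 7.64). IWA fish 5 stood apart with 38.5 CPM of atp2b4 (highest, diet median 17.8), 11.1 CPM of opa3 (highest, diet median 6.05), 252 CPM of slc6a6 (lowest, diet median 420), 29.7 CPM of fdft1 (lowest, diet median 57.5) and 53.4 CPM of utp20 (highest, diet median 34.6). ACJ fish 4 stood apart with 21.4 CPM of fdft1 (lowest, diet median 48.6), 15.2 CPM of utp20 (lowest, diet median 25.0) and 18.4 CPM of nr1i2 (highest, diet median 11.4). IWA fish 2 stood apart with 5.43 CPM of cbpa1 (highest, diet median 0), 1.96 CPM of cac3 (highest, diet median 0) and 5.95 CPM of cbpa2 (highest, diet median 0.0341). ACJ fish 3 stood apart with 1.35 CPM of ENSSSAG00000019115 (highest, diet median 0.687) and 0.135 CPM of adkb (lowest, diet median 0.590). ICJ fish 4 stood apart with 15.3 CPM of stard4 (lowest, diet median 49.1) and 3.07 CPM of adkb (highest, diet median 0.321). IWA fish 3 stood apart with 3.39 CPM of nrg1 (lowest, diet median 8.47) and 3.16 CPM of fbn2a (lowest, diet median 10.1). AWA fish 1 stood apart with 0.622 CPM of upb1 (lowest, diet median 1.13).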

How the results depend on the processing

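The number of DEGs between species, 1182, ranged from 0 to 4717 when 1 fish was left out, and 11 of 24 removals gave 0. It was 3086 with DESeq2, 1865 with DESeq2 without ICJ fish 4, 219 with a log2 limit of 2, and 1858 with counts summed per tank, where tanks were inferred from fish numbers. It was 0 with all 36 DI libraries in the fit, with these less ICJ fish 4, without ICJ fish 4 and IWA fish 5, with 3 sets of tanks as a block, with limma voom and the tank as a random block, and with the posterior Hox score as a covariate. All 1182, which were chosen on the full set, kept their sign in these fits, and the cause of the changes in number was not tested. DESeq2 gave 6 genes for the interaction, 1302 for IWA against ICJ, 90 for AWA against ACJ, 40 for processing and 2 in the spleen, and without ICJ fish 4 it gave 9 for the interaction, 13 for IWA against ICJ, 125 for AWA against ACJ and 40 for processing. IWA against ICJ ranged from 0 to 2514 when 1 fish was left out. The log2 fold change of adkb, -0.61, was 0.0069 with all DI libraries except ICJ fish 4 and 0.0057 without ICJ fish 4 and IWA fish 5. The Hox covariate and the settings that leave out ICJ fish 4 with another change were chosen after seeing the data.

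Replicate numbers are shared by the diets but belong to different fish in each. Deviations of same-numbered fish of different diets correlated between -0.441 and 0.535, with a median of 0.119, over 0.1 in 19 of 36 pairs. For fish with other numbers the median was -0.031, and 57 of 180 pairs were over 0.1. Within the same set of inferred tanks 33 of 72 pairs were over 0.1. Fish of the same inferred tank had a median of -0.243, and 0 of 12 pairs were over 0.1. Fish of the same diet in other tanks had a median of -0.167, and 8 of 48 pairs were over 0.1. The correlation within inferred tanks in limma voom was -0.065. What same-numbered fish share was not tested. With the replicate block 0 genes passed for the species effect, with a smallest adjusted p of 0.0609.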
